A study of Mus musculus with 4 samples.

Results

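The basal, suprabasal and wound keratins Krt5, Krt14, Krt15, Krt17, Krt19, Krt6a, Krt6b, Krt16, Krt1 and Krt10 were followed in hair follicle stem cells that lacked or kept Tbx1. Members were all probe sets whose only gene symbol in the platform annotation was one of these names. All 10 genes had at least 1 probe set, giving 15 probe sets among 20380 probe sets with a single symbol (10 of 12393 genes). The arrays measured cells positive for the bulge surface proteins CD34 and integrin α6 and for the fluorescent reporter YFP, sorted from the back skin of female CD1/C57BL/6 mice aged about 60 days after birth. RNA was hybridised to 4 Affymetrix arrays: 2 from mice with a conditional knockout of the T-box transcription factor gene Tbx1 (cKO) and 2 from wild-type (WT) mice. Each genotype had 1 array in set 2, described as activated cells, and 1 in set 1, described as quiescent cells. The treatment text gives wax depilation 48 h before harvest for both sets, so the sets are named here by number. The sources used here give neither the recombinase driver of the knockout nor the animals behind each array, so p-values measure only the spread between these arrays, which may be technical.

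Keratins are the intermediate filament proteins of epithelial cells and assemble as pairs of an acidic type I and a basic type II chain. Krt5 (type II) and Krt14 (type I) form the filaments of basal keratinocytes, and Krt1 and Krt10 replace them as cells move into the suprabasal layers. Krt6a, Krt6b, Krt16 and Krt17 are induced at wound edges and are also made in parts of the hair follicle. Krt15 and Krt19 are type I keratins used as markers of bulge cells.

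Levels are log2 of the deposited intensity, and with 2 arrays per group the number of arrays limits their precision. The array medians lay between 6.36 and 6.38. Tbx1 itself was at 8.88 and 9.54 on the cKO arrays and 10.37 and 10.53 on the WT arrays, lower on both cKO arrays, and the difference of -1.24 (SE 0.26) did not pass limma's test (adjusted p = 0.274). The WT set 2 array stood apart in the nuclear RNAs Malat1 (12.35, against 9.80 to 10.56 on the other arrays) and Neat1 (9.08, against 7.46 to 8.51), and their part in the keratin levels was not tested. In turn, the cKO set 1 array showed the widest gap between 3′ and 5′ signal of the spiked Dap control, 2.95 against 1.74 to 1.82 elsewhere. The same array had the widest such gap for the endogenous Gapdh, 0.68 against 0.24 to 0.34, and Actb, 1.68 against 1.09 to 1.18. Probe sets whose mean fell below percentile 40 of the whole table, a log2 level of 5.40, were called dim and were not tested. Of the members, 14 probe sets of 9 genes lay above this limit, and the single Krt19 probe set lay below it.

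Krt1, Krt10, Krt6a, Krt6b and Krt16 had their lowest level on the WT set 2 array. The 3 other arrays spanned 0.16 for Krt10 to 0.86 for the Krt6a probe set 1422783_a_at, whose WT set 2 level lay 1.08 below the next. All 7 probe sets of these 5 genes were at least 1.5-fold lower on the WT set 2 array than on each other array, as were 2.3% of the 12531 probe sets tested. Krt5 and the 2 bright Krt14 probe sets spanned 0.22 to 0.28 over the arrays and the weak Krt14 probe set 1.06, Krt15 was higher on both cKO arrays, and Krt17 was lower on both. No member passed limma's test between genotypes or between sets, with Benjamini-Hochberg adjustment over all 12531 probe sets.

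**Figure D1:**
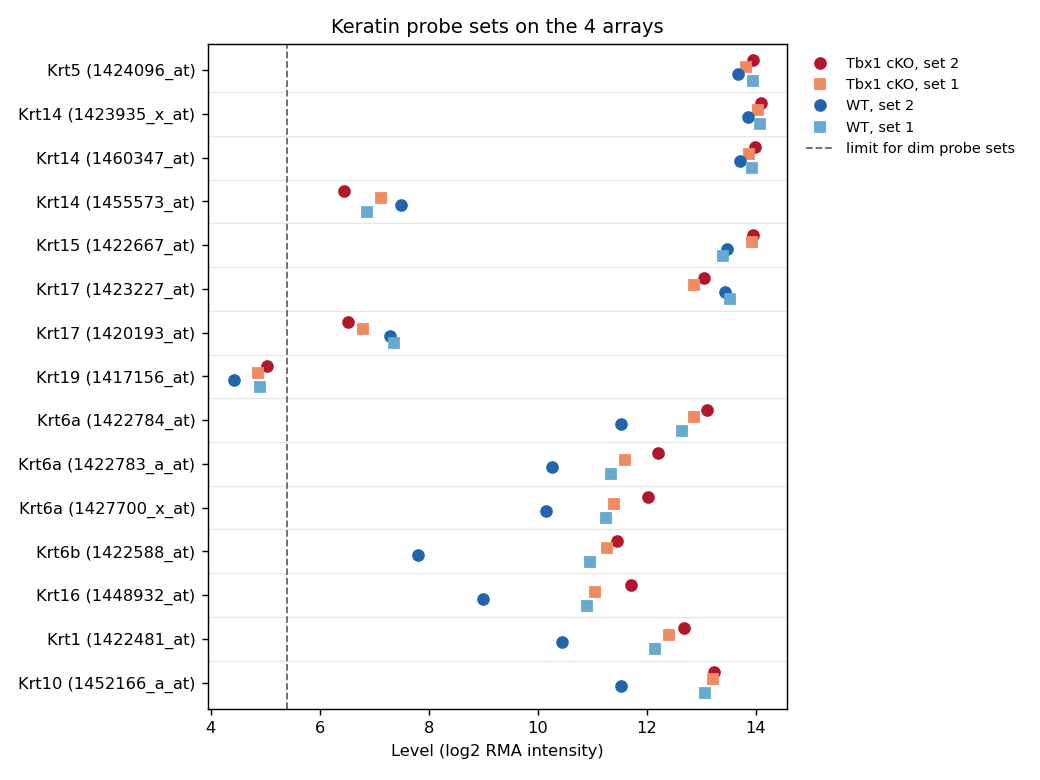
Level of each keratin probe set on the 4 arrays, as log2 RMA intensity on the horizontal axis, with 1 point per array and the limit for dim probe sets as a dashed line. The WT set 2 point lies apart on the left for Krt6a, Krt6b, Krt16, Krt1 and Krt10, with Krt6b at 7.80 there and between 10.96 and 11.45 on the other arrays, while the bright Krt5 and Krt14 points lie close together.

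Krt5, the basal type II keratin, was at 13.95 and 13.82 on the cKO set 2 and set 1 arrays and at 13.68 and 13.94 on the WT set 2 and set 1 arrays. The groups overlapped, and the difference between cKO and WT of 0.07 (SE 0.18, limma adjusted p = 0.892) was smaller than its standard error. Its partner Krt14 had 2 bright probe sets. The first, 1423935_x_at, was at 14.08 and 14.04 in cKO set 2 and set 1 and at 13.86 and 14.07 in WT set 2 and set 1. The second, 1460347_at, was at 13.99 and 13.87 in cKO and at 13.72 and 13.93 in WT, in the same order of sets. On both probe sets the WT set 2 array was the lowest of the 4, by 0.17 and 0.16 below the next, a far smaller gap than for the suprabasal and wound keratins. The third Krt14 probe set, 1455573_at, was much weaker and ran the other way, at 6.44 and 7.12 in cKO set 2 and set 1 and at 7.50 and 6.86 in WT set 2 and set 1. The weak Krt14 probe set therefore disagrees with the 2 bright ones, which ran alike. A probe set whose name ends in x can also bind related transcripts, but here the x probe set ran with 1460347_at. One further probe set carried both the Krt17 and Krt14 symbols, was dim on average and was left out of the members.

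Krt15, the type I keratin of bulge and basal cells, was at 13.94 and 13.93 in cKO set 2 and set 1 and at 13.47 and 13.39 in WT set 2 and set 1. Both cKO arrays were above both WT arrays, and the groups did not overlap. The level averaged 13.94 ± 0.0085 in cKO and 13.43 ± 0.05 in WT (SD, n = 2 each), a difference of 0.51 (SE 0.16) that did not pass limma's test (adjusted p = 0.351). The difference was of like size within the sets, 0.48 in set 2 and 0.54 in set 1, or 1.39-fold and 1.45-fold. Without the WT set 2 array it was 0.55 (limma adjusted p = 0.471). Each fit without that array leaves 1 WT array, here and below. The p of such a fit rests on the spread between the 2 cKO arrays and on limma's spread drawn from all probe sets. It assumes that the lone WT array varies like the cKO arrays. Krt15 was also the only member that was higher in set 2 than in set 1 in both genotypes, by 0.01 in cKO and 0.08 in WT.

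Krt19, another type I keratin used to mark the bulge, was dim on every array. Its probe set was at 5.04 and 4.87 in cKO set 2 and set 1 and at 4.43 and 4.91 in WT set 2 and set 1, all under the limit of 5.40. The table holds no detection call, so these levels say only that signal was weak at this probe set. Among other bulge markers, 8 of 9 measured genes, Cd34 and Itga6 included, lay above the limit and Fgf18 lay below it. The summed linear intensity of the 9 was 24188 and 24392 in cKO set 2 and set 1 and 24221 and 17008 in WT set 2 and set 1. Postn, the brightest, weighs most in this sum, at 13.74 and 13.71 in cKO set 2 and set 1 and 13.64 and 12.85 in WT. Of the 8, 3 were higher in cKO in both sets (31.6% of all probe sets). Lhx2 alone was lower in both (31.2%), with differences of -0.38 in set 2 and -0.52 in set 1.

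Krt17, a type I keratin of the follicle sheath and of wound edges, was the only member below WT on both cKO arrays. The bright probe set 1423227_at was at 13.05 and 12.87 in cKO set 2 and set 1 and at 13.43 and 13.52 in WT set 2 and set 1. Its mean difference was -0.52 (SE 0.17, limma adjusted p = 0.366), with -0.38 in set 2 and -0.66 in set 1. A weaker probe set, 1420193_at, was at 6.51 and 6.80 in cKO set 2 and set 1 and at 7.29 and 7.37 in WT set 2 and set 1. It gave -0.67 (SE 0.18, limma adjusted p = 0.330), with -0.78 in set 2 and -0.57 in set 1. The 2 Krt17 probe sets thus ran the same way in both sets, and neither passed the test over all probe sets. Without the WT set 2 array the differences were -0.57 and -0.71.

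Krt6b, a type II wound keratin, had the widest range of any member. It was at 11.45 and 11.27 in cKO set 2 and set 1, at 7.80 in WT set 2 and at 10.96 in WT set 1. The cKO level was 12.6-fold above WT in set 2 and 1.24-fold above WT in set 1. The mean difference of 1.98 (SE 0.98, limma adjusted p = 0.485) was no larger than the spread within WT, since the level averaged 11.36 ± 0.13 in cKO and 9.38 ± 2.24 in WT (SD, n = 2 each). Without the WT set 2 array the difference was 0.40 (limma adjusted p = 0.572).

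Krt6a, the paralogue of Krt6b, had 3 probe sets that ran alike. The brightest, 1422784_at, was at 13.11 and 12.87 in cKO set 2 and set 1 and at 11.53 and 12.64 in WT set 2 and set 1. The second, 1422783_a_at, was at 12.20 and 11.61 in cKO and at 10.26 and 11.34 in WT. The third, 1427700_x_at, was at 12.02 and 11.39 in cKO and at 10.16 and 11.25 in WT, again set 2 before set 1. All 3 were between 2.98-fold and 3.83-fold higher in cKO in set 2 and between 1.11-fold and 1.20-fold higher in set 1. Krt6a and Krt6b are close paralogues, and their probe sets may not tell such transcripts apart, the one named with x above all. Between WT set 2 and WT set 1 the difference was -3.17 for Krt6b and between -1.11 and -1.08 for the Krt6a probe sets.

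Krt16, the type I partner of Krt6 in wound epithelium, was at 11.72 and 11.04 in cKO set 2 and set 1 and at 8.99 and 10.91 in WT set 2 and set 1. It was 6.61-fold higher in cKO in set 2 and 1.10-fold higher in set 1. The mean difference was 1.43 (SE 0.64, limma adjusted p = 0.454). Leaving out WT set 2 gave 0.47 (limma adjusted p = 0.675).

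Krt1, the suprabasal type II keratin, was at 12.69 and 12.41 in cKO set 2 and set 1 and at 10.44 and 12.15 in WT set 2 and set 1. Its type I partner Krt10 was at 13.23 and 13.22 in cKO set 2 and set 1 and at 11.53 and 13.07 in WT set 2 and set 1. Within set 2 the cKO level was 4.74-fold above WT for Krt1 and 3.24-fold for Krt10. Within set 1 the ratios were 1.20 and 1.11. The mean differences were 1.25 (SE 0.55, limma adjusted p = 0.449) and 0.93 (SE 0.49, limma adjusted p = 0.508). Without the WT set 2 array they were 0.40 for Krt1 (limma adjusted p = 0.594) and 0.16 for Krt10 (limma adjusted p = 0.786). On the 3 other arrays Krt10 spanned 0.16 in all, and Krt1 spanned 0.54.

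The promoters of Krt10 and Krt5 are set side by side because the WT set 2 level lay 1.53 below the lowest other array for suprabasal Krt10 and 0.14 below it for basal Krt5. RefSeq windows of GRCm38.p6 run from 250 bases before to 50 bases after the transcript start and were at hand for 3 members, of which Krt14 is named only. The windows were searched on both strands for the TATA box TATAAA, the AP-1 motif TGANTCA, the Sp1 motif GGGCGG and the AP-2 motif GCCNNNGGC, with matches in capitals. The Krt10 window lies at chr11:99389315-99389614 and the Krt5 window at chr15:101712856-101713155, both on the minus strand.
Krt10: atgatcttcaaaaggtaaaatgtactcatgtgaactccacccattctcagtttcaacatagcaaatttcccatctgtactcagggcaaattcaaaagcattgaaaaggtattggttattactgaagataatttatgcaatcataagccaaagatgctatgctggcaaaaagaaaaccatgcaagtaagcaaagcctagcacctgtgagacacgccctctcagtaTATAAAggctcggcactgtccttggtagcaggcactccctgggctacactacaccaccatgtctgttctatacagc
Krt5: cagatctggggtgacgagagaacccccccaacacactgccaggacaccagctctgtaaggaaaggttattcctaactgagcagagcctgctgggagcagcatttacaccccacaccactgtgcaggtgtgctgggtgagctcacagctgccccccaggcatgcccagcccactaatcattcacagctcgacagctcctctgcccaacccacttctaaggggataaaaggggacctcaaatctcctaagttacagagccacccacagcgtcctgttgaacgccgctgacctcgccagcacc
The single match was the TATA box of Krt10, from base -26 to base -21 relative to the start. Of 32851 RefSeq windows of this length, 13.6% held TATAAA, 7.81% the AP-1 motif, 35.7% the Sp1 motif and 16.6% the AP-2 motif. The absence of a match says only that these letters are not in the window.

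Partner keratins can be compared by their differences, since levels of different probe sets cannot be set against each other. Using the brightest probe set of each gene, Krt5 and Krt14 differed between cKO and WT by 0.27 and 0.22 in set 2 and by -0.12 and -0.03 in set 1, so the pair stayed within 0.10 of each other. For Krt1 and Krt10 the differences were 2.25 and 1.70 within set 2 and 0.26 and 0.15 within set 1. In set 2 the Krt16 difference of 2.72 lay between those of Krt6a, 1.58, and Krt6b, 3.65. Krt17, which also pairs with Krt6, went the opposite way with -0.38 in set 2 and -0.66 in set 1. With 1 array for each genotype and set, these gaps between partners carry no test.

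Between cKO and WT, limma called 7 of all probe sets at an adjusted p under 0.05 (0.0559%), and 57 once set was added as a block, none of them members. At an unadjusted p under 0.05, limma gave 4 of the 14 member probe sets, those of Krt15 and Krt17 and 1 of Krt6a, against 12% of all probe sets, and 10 member probe sets once set was added as a block, against 17.1% of all. The cKO arrays lay wholly above the WT arrays for 8 member probe sets of 6 genes, namely Krt15, Krt6a, Krt6b, Krt16, Krt1 and Krt10, where 23.4% of all probe sets did so. They lay wholly below for the 2 Krt17 probe sets, where 21.4% of all probe sets did so. Counted set by set, the same 8 were higher in cKO in both sets (31.6% of all probe sets) and the same 2 were lower in both (31.2%). For these probe sets the lack of overlap already implies it. No member was at least 1.5-fold higher in both sets (2.4% of all) or at least 1.5-fold lower in both (2.16%). Within set 2, 7 member probe sets were at least 1.5-fold higher in cKO, against 8.26% of all probe sets. Within set 1 none was, against 5.31% of all. The weak Krt14 probe set and the weak Krt17 probe set were at least 1.5-fold lower in cKO in set 2 (9.7% of all), and the bright Krt17 probe set was in set 1 (6.21%). The 14 tested probe sets had a median difference of 1.03 within set 2 and 0.15 within set 1, beside 0.02 and -0.01 over all probe sets. Over alternatives that kept all arrays, the limma adjusted p ran from 0.23 to 0.55 for Krt6b and 0.10 to 0.36 for Krt15. It ran from 0.16 to 0.34 for the weak Krt17 probe set and from 0.23 to 0.57 over Krt16, Krt1 and Krt10. Dropping WT set 1 raised the genotype difference to 3.6 for Krt6b, 2.4 for Krt16, 2.1 for Krt1 and 1.7 for Krt10. There WT rests on its low set 2 level alone. Without the WT set 2 array, the cKO arrays lay above the WT set 1 array for 8 member probe sets, where 35.4% of all probe sets did so. Leaving out an array cannot lower such a count.

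**Figure D2:**
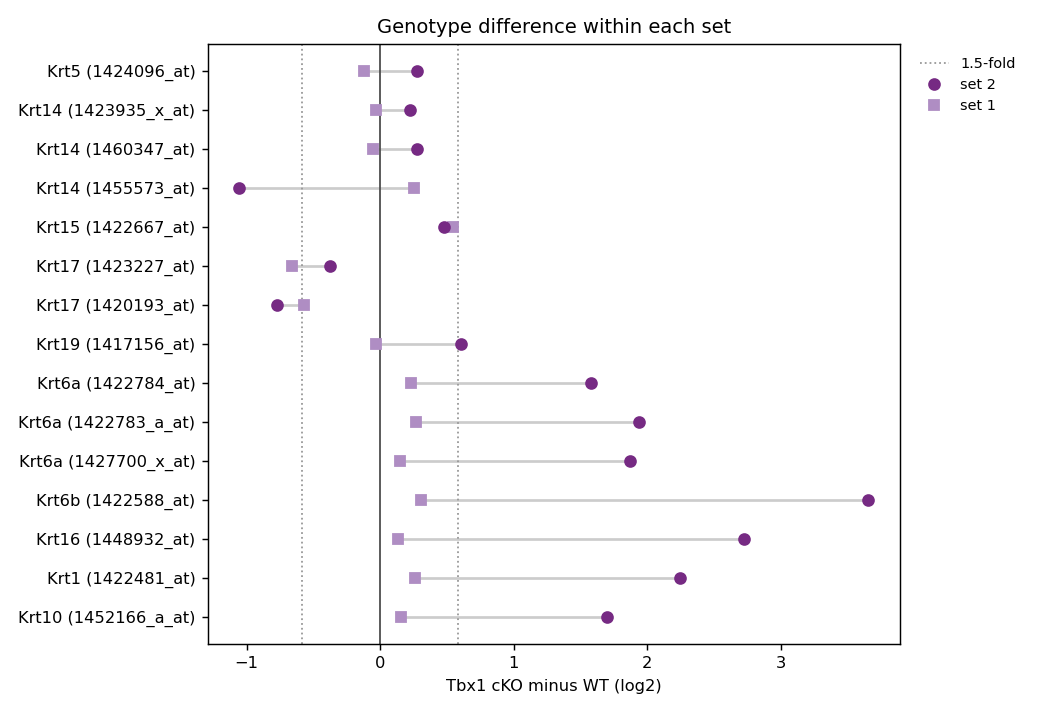
Difference between Tbx1 cKO and WT on the log2 scale for each keratin probe set, with set 2 as circles and set 1 as squares joined by a line, and dotted lines at 1.5-fold. Set 2 values of Krt6a, Krt6b, Krt16, Krt1 and Krt10 lie between 1.58 and 3.65, set 1 values of the same probe sets lie between 0.13 and 0.31, and Krt15 and both Krt17 probe sets have the same sign in both sets.

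The sets were compared because one is described as activated and the other as quiescent. No probe set passed limma's test between sets, with 0% called, and 451 did so at an unadjusted p under 0.05 (3.6%), none of them members. In WT, 7 member probe sets, those of Krt6a, Krt6b, Krt16, Krt1 and Krt10, were at least 1.5-fold lower in set 2, against 4.84% of all probe sets. In cKO the same 7 probe sets differed between the sets by 0.01 for Krt10 to 0.67 for Krt16, all with higher values in set 2. Of these, 2 Krt6a probe sets and Krt16 were at least 1.5-fold higher in set 2, against 4.45% of all probe sets. These 3 thus passed 1.5-fold in opposite directions in the genotypes, as did 0.295% of all probe sets. The weak Krt14 probe set did the reverse, at least 1.5-fold lower in set 2 in cKO (2.61% of all) and at least 1.5-fold higher in set 2 in WT (9.27%). No member had both set 2 arrays above both set 1 arrays (14.6% of all) or below them (17.2%). Krt15 was higher in set 2 in both genotypes (24.4% of all) and the weak Krt17 probe set was lower in both (31.8%). Krt5 and both bright Krt14 probe sets were higher in set 2 in cKO, by 0.05 to 0.13, and lower in set 2 in WT, by values of -0.26 to -0.21. Across both genotypes the mean difference ran from -1.49 for Krt6b (SE 1.14) to 0.04 for Krt15 (SE 0.28), with a limma adjusted p of 0.999 for Krt6b. The cKO difference less the WT difference was 3.35 for Krt6b and 2.59 for Krt16, and the 4 arrays leave no residual degrees of freedom for its test.

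**Figure D3:**
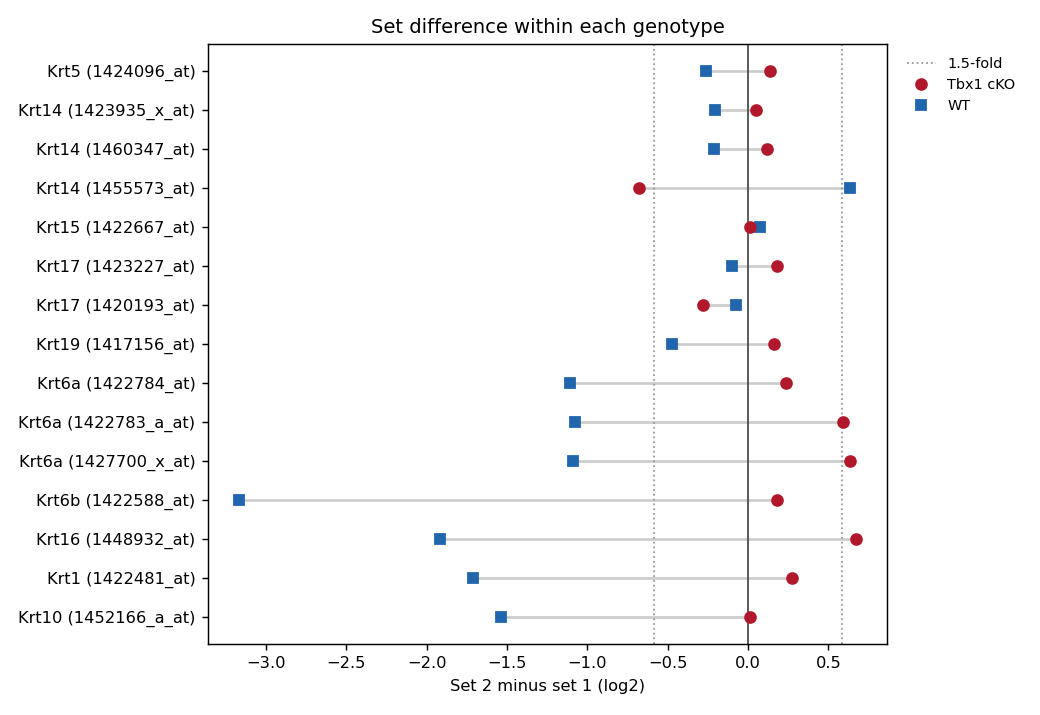
Difference between set 2 and set 1 on the log2 scale for each keratin probe set, with Tbx1 cKO as circles and WT as squares joined by a line, and dotted lines at 1.5-fold. WT values of Krt6a, Krt6b, Krt16, Krt1 and Krt10 lie between -3.17 and -1.08, and cKO values of the same probe sets lie between 0.01 and 0.67.

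Of 16 listed epidermal and simple epithelial keratins, 12 were measured and 5 lay above the limit, and none passed limma's test in either comparison. Krt77, a type II keratin of suprabasal epidermis and sweat ducts, was at 10.60 and 10.62 in cKO set 2 and set 1 and at 8.65 and 10.75 in WT set 2 and set 1. Krt79, a keratin of the hair canal and infundibulum, was at 11.99 and 11.77 in cKO set 2 and set 1 and at 10.94 and 11.94 in WT set 2 and set 1. Both were lowest on the WT set 2 array and, unlike Krt1, Krt10, Krt6a, Krt6b and Krt16, slightly lower in cKO than in WT within set 1, by -0.14 and -0.17. Krt80, a type II keratin linked to differentiating cells, was at 8.06 and 8.58 in cKO set 2 and set 1 and at 6.78 and 8.06 in WT set 2 and set 1. Krt7, a keratin of simple and glandular epithelium, was at 6.01 and 7.11 in cKO set 2 and set 1 and at 4.90 and 5.29 in WT set 2 and set 1. Both WT levels of Krt7 lay below the limit, and its mean difference of 1.47 (SE 0.39, limma adjusted p = 0.330) was positive in both sets. Over the 5 genes the median genotype difference was 1.11 in set 2 and -0.02 in set 1, beside 0.02 and -0.01 over all probe sets. Of 24 hair and root sheath keratins, 17 were measured and 12 of them were dim, and the median genotype difference of the 5 others was 0.22 in set 2 and 0.06 in set 1. Krt32, a type I keratin of the hair cuticle, had the largest mean difference of these, 0.67 (SE 0.26, limma adjusted p = 0.405).

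**Figure D4:**
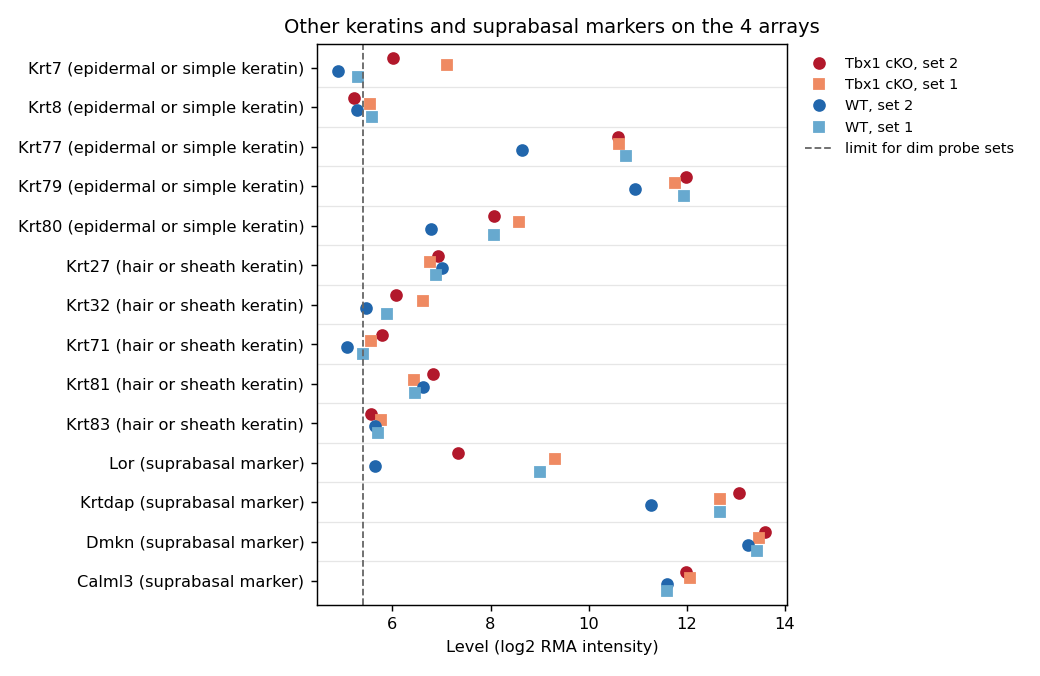
Level of other keratins and of suprabasal epidermal markers above the limit for dim probe sets (dashed line), as log2 RMA intensity, with 1 point per array. Krt77, Krt79, Krt80 and Krtdap are lowest on the WT set 2 array, and Lor is lower on both set 2 arrays than on both set 1 arrays.

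Of 8 suprabasal epidermal markers, 6 were measured, and Ivl and Dsc1 were dim. The 4 others, Lor, Krtdap, Dmkn and Calml3, were lowest on the WT set 2 array, as were 35.4% of all probe sets tested. For Calml3 the 2 WT arrays were almost level, with set 2 minus set 1 at -0.0004. The summed linear intensity of the 6 was 25280 and 22836 in cKO set 2 and set 1 and 15471 and 21286 in WT set 2 and set 1. Krtdap, a keratinocyte differentiation protein, was at 13.06 and 12.67 in cKO set 2 and set 1 and at 11.28 and 12.69 in WT set 2 and set 1, close to the course of Krt10. Lor, which encodes the cornified envelope protein loricrin, followed another course, at 7.34 and 9.32 in cKO set 2 and set 1 and at 5.65 and 9.01 in WT set 2 and set 1. Calml3, a calmodulin-like protein of keratinocytes, was at 11.99 and 12.07 in cKO and at 11.60 and 11.60 in WT, set 2 before set 1. In sorted bulk samples, fewer suprabasal cells and less keratin RNA per cell cannot be told apart, and the part of such cells in the keratin levels was not tested.

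Endothelial markers were lower in cKO, with a summed linear intensity over 5 genes of 86.4 and 84.3 in cKO set 2 and set 1 and 369 and 472 in WT set 2 and set 1. Of these, 4 were dim on average and Plvap passed limma's test (adjusted p = 0.0175). Plvap was at 4.19 and 4.29 in cKO set 2 and set 1 and at 7.78 and 8.29 in WT set 2 and set 1. Both cKO levels of Plvap lay below the limit for dim probe sets, and only its WT levels brought its mean above that limit. Its test therefore rests in part on the spread of weak signal on the cKO arrays. The summed intensity was 217 and 254 in cKO set 2 and set 1 and 175 and 232 in WT for 7 immune markers, of which 6 were dim. Dim genes count in each of these sums. The sum was 278 and 213 in cKO and 247 and 202 in WT for 5 melanocyte markers, and 271 and 298 in cKO and 348 and 300 in WT for 6 fibroblast markers, set 2 before set 1. Of these, 2 melanocyte and 4 fibroblast markers were dim. For 5 sebaceous gland markers the sum was 3354 and 4188 in cKO and 2848 and 3764 in WT. Of these 5, 2 were dim, 2 were higher in cKO in both sets (31.6% of all probe sets) and Fasn was lower in both (31.2%). The 2 higher were Scd1 and Mgst1, each by its brightest probe set. A second Scd1 probe set, 1415965_at, differed by 0.03 in set 2 and -0.13 in set 1, so the Scd1 probe sets disagree. The part of these cells in the keratin differences was not tested.

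Proteins that link or bundle keratin filaments were compared next. Of 15 listed, 13 were measured and 10 lay above the limit. In 9 of these the cKO level was higher in both sets (31.6% of all probe sets), and none passed limma's test between genotypes or sets. The median genotype difference was 0.63 in set 2 and 0.39 in set 1. Plec, the cytolinker plectin that ties keratins to hemidesmosomes, was higher in cKO by 0.73 within set 2 and 0.61 within set 1 (mean 0.67, SE 0.27, limma adjusted p = 0.426), and a second, weaker Plec probe set was also higher on the cKO arrays in both sets. Ppl, the desmosome-associated linker periplakin, differed by 0.43 and 0.81. The desmosomal plaque gene Pkp1, plakophilin 1, differed by 0.80 and 0.38, and Jup, plakoglobin, by 0.84 and 0.27, set 2 before set 1. The sign was the same in both sets for all 4, none of which passed the test.

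Of 19 listed transcription factors known to act on keratin genes, 18 were measured, all above the limit, and none passed limma's test in either comparison. The level was higher in cKO within both sets for 10 (31.6% of all probe sets) and lower within both for 2 (31.2% of all), and the median of the 18 differences was 0.39 within set 2 and 0.15 within set 1. Ovol1, a repressor of differentiating epidermis, was at 7.58 and 7.08 in cKO set 2 and set 1 and at 5.78 and 6.98 in WT set 2 and set 1, again with the WT set 2 array lowest. Klf4, a factor of the skin barrier, was higher in cKO by 1.11 within set 2 and 0.32 within set 1, and Klf5, which is active in basal keratinocytes, by 1.21 and 0.20. A second Klf5 probe set, 1451739_at, was highest on the WT set 2 array, at 9.60 against 8.04 to 8.32 on the others, so the Klf5 probe sets disagree. Stat3, a cytokine-activated factor, was higher in cKO by 0.65 within set 2 and 0.34 within set 1.

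The likeness of profiles was measured over the 4 arrays as the root mean square distance between log2 levels centred on each probe set's own mean, and it is a description only. The closest to Krt6b were Sprr1b (0.21), Sprr2h (0.38), 2610528A11Rik (0.46), Sprr1a (0.53) and Calm4 (0.53), and Krt16 came next at 0.55. Of these, the Sprr genes encode small proline-rich proteins of the cornified envelope. Krt16 was closest to Teddm3 (0.07), Calm4 (0.07), Sprr1a (0.08), Krt1 (0.18) and Npl (0.22). Krt15, whose range over the arrays was 0.55, was closest to Entpd5 (0.02), Smim27 (0.02), 2310010J17Rik (0.02), Hebp2 (0.03) and Hip1 (0.03). Distances to Krt15 are small because its own differences are small, so the 3 sets of distances are not to be compared with one another.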

How the data were processed

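The deposited table holds an RMA intensity per probe set on a linear scale, per the submitters' processing notes, which name no version. The intensity values as deposited ran from 5.29 to 25561, so log2 was taken from them. Genes were named from the platform annotation, and all 15 member probe sets had the same symbol in a RefSeq gene table of GRCm38.p6. The files name no genome build, so only the RefSeq promoters carry coordinates. Probe sets with a single symbol and a mean at or above percentile 40 (12531) entered lmFit and eBayes (limma 3.58.1, R 4.3.3) over all 4 arrays with no covariate, once for genotype and once for set. The fits were also run on simulated data with independent noise and no set difference, and nothing here is drawn from that run.

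Exact permutation of 2 arrays against 2 cannot give a p below 0.333, so no single value was tested that way. The set number pairs a cKO with a WT array, since both carry the same description; deviations of same-numbered arrays correlated with r = 0.251 across probe sets. Members and lists were chosen with earlier results of these data known. Named genes were the members, up to 4 genes per list and comparison with the largest mean difference, any list gene that passed, and the 5 nearest profiles of 3 members; not all of them are named. Alternatives were filters, probe set choice, 2 scalings, a variance trend with robust fitting, blocks and leaving out each array.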

Additional observations from a re-analysis of the deposited data

Results flagged for a closer look

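With 1 array for each genotype and set, the differences below had opposite signs in the 2 sets, or in the 2 genotypes for the set comparison, and were not tested. Each value is the cKO minus WT difference in set 2 less that in set 1, on the log2 scale. It was 3.35 for Krt6b, 2.59 for Krt16, 1.99 for Krt1 and 1.54 for Krt10. The Krt6a probe sets gave 1.34, 1.67 and 1.72. For the basal keratins the value was 0.40 for Krt5, 0.26 and 0.33 for the bright Krt14 probe sets and -1.31 for the weak one, and it was 0.28 for the bright Krt17 probe set. Outside the members it was 2.10 for Krt77, 1.22 for Krt79 and 1.80 for Krtdap. The Krt15 value of -0.06 is not of this kind.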

How the results depend on the processing

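No member passed limma's test under any alternative. The 182 member differences recomputed with other filters, scalings, probe set choices, variance models or blocks all kept their sign. Of these settings only the 2 scalings can change a difference, so under the others the sign was fixed in advance. Leaving out an array turned the sign of 20 of 112 member differences. Over all probe sets, the genotype comparison called 0 at the percentile 60 filter, 11 with a variance trend and robust fitting, 57 with the set as a replicate block, and 0 (without WT set 1), 2 (without WT set 2), 3 (without cKO set 1) or 11 (without cKO set 2) with an array left out; the set comparison called 5 with genotype as a block. The replicate block changed no member's call. With each array left out in turn, the genotype difference ran from -0.058 to 0.20 for Krt5, -0.0084 to 0.20 for Krt14 (1423935_x_at), -0.14 to 1.96 for Krt77, -0.057 to 0.94 for Krt79 and -0.68 to 2.69 for Lor. The set difference ran from -0.20 to 0.071 for Krt5, -0.23 to 0.31 for Krt15, -3.32 to 0.33 for Krt6b, -1.99 to 0.74 for Krt16, -1.84 to 0.41 for Krt1 and -1.61 to 0.086 for Krt10. It ran from -0.19 to 0.033, -0.18 to 0.091 and -0.55 to 0.50 for the Krt14 probe sets in the order given above. For Krt17 it ran from -0.29 to 0.37 and -0.57 to 0.21, and for Krt6a from -1.22 to 0.35, -1.21 to 0.73 and -1.16 to 0.71. The cause of these shifts was not tested. With the WT set 2 array left out, the set difference of every Krt6a, Krt6b, Krt16, Krt1 and Krt10 probe set was positive. The 8 member probe sets with cKO wholly above WT belong to 6 genes, and taking 1 probe set per gene leaves 9 of the 14 member probe sets. The count of member probe sets with cKO wholly above WT was 6 to 8 under other settings. It was 11 without cKO set 1 or WT set 1, where 33.6% and 42.6% of all probe sets did so, and 8 without cKO set 2 or WT set 2, where 35.4% did so each time. Leaving out an array can only keep or raise this count. Without scanner files or detection calls, signal over background was not measured, which limits what can be said of Krt19.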
